A study of Homo sapiens with 32 samples.

Results

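The genes described here belong to the SR family of splicing factors and to nuclear speckles, and were followed through the m6A peak lists of 16 immunoprecipitated (IP) libraries. They were chosen by name, as SRSF1, SRSF2, SRSF3, SRSF5, SRSF6, SRSF7, SRSF11, TRA2B, SON and SRRM2, and are 10 of the 20037 protein-coding genes of the RefSeq table of GRCh38.p14. A peak was given to a gene where it overlapped the gene body by at least 1 bp. After the peaks of the 16 libraries were merged wherever they overlapped, the 10 genes held 44 of the 82676 regions in protein-coding genes.

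In MeRIP-seq, fragmented RNA is pulled down by an antibody to N6-methyladenosine (m6A) and set against Input RNA. It was done in 786-O, a clear cell renal cell carcinoma (ccRCC) line, and in RPTEC, an immortalized renal proximal tubule line that stands in for normal kidney, to ask how m6A is placed when SETD2, the enzyme that trimethylates H3K36, is lost. Each cell line was present as WT, as the SETD2 knockout clones SETD2KO-1 and SETD2KO-2, and as SETD2KO-1R, in which the SETD2KO-1 clone carried a full-length FLAG-tagged SETD2 transgene and was cloned again, with 2 IP libraries per line and no treatment. The 4 SETD2KO libraries of a cell line (SETD2KO-1 and SETD2KO-2) were compared with its 4 SETD2-expressing libraries (WT and SETD2KO-1R). 786-O was grown in RPMI1640 and RPTEC in DMEM F12 with a growth kit, both with 10% FBS, so cell line, medium and preparation cannot be told apart. Each knockout and each rescue is 1 clone. Nothing in the labels says whether the 2 libraries of a line came from separate cultures, so the p-values below measure the spread between these libraries, which may be technical.

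SR proteins bind exonic sequences through RNA recognition motifs and recruit the spliceosome through domains rich in arginine and serine, and many of them shuttle between the nucleoplasm and nuclear speckles. SON and SRRM2 are the large, disordered proteins around which speckles form. Transcripts of several SR genes hold ultraconserved poison exons, whose inclusion sends the RNA to nonsense-mediated decay, so these genes regulate their own splicing. m6A is placed on nascent RNA by METTL3 and METTL14, mostly at the sequence RRACH, and the nuclear m6A reader YTHDC1 binds SR proteins.

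The 16 lists held 19249 to 39670 peaks and 474004 in all, with the 2 shortest lists in RPTEC SETD2KO-2 replicate 2 and RPTEC WT replicate 2. They give a score and a summit for each peak but no reads, so the depth behind a peak is unknown, and a missing call is not evidence that a transcript lacks m6A. SETD2 itself had peaks in every library. In 786-O it had 8 and 10 in WT, 7 and 9 in SETD2KO-1R, 5 and 10 in SETD2KO-1 and 5 and 4 in SETD2KO-2, so the groups overlap. In RPTEC it had 7 and 10 in WT, 11 and 10 in SETD2KO-1R, 6 and 4 in SETD2KO-1 and 4 and 5 in SETD2KO-2, fewer in every SETD2KO library. Of 12185 genes in RPTEC, 1.41% likewise had fewer peaks in every SETD2KO library. Whether RNA of the transgene gave peaks in SETD2KO-1R was not tested. A number of m6A peaks does not show whether the allele was edited. Of the cell type markers, the renal tubule genes PAX8, PAX2, KRT8 and KRT18 were called in all 16 libraries, and VEGFA was too. EGLN3 was called in 7 libraries of 786-O and 2 of RPTEC, and CA9, a ccRCC marker, in 0. EGLN3 covered 1188 bp on average in 786-O and 110 bp in RPTEC (exact permutation adjusted p = 0.0314). The percentile of its strongest peak, counted as 0 in a library without a call, averaged 53.1 and 3.69 (exact permutation adjusted p = 0.0448). Most RPTEC libraries entered that mean as 0. Of 13420 genes, 8.72% passed an adjusted p of 0.05 higher in 786-O by covered length and 3.82% by percentile. None of 3 leukocyte or 2 hepatocyte genes was called, and of 3 endothelial genes only CDH5 was, in the 4 SETD2-expressing libraries of RPTEC and in 0 of its 4 SETD2KO libraries, with PECAM1 and VWF at 0 throughout. By covered length the CDH5 difference gave exact permutation p = 0.0286 (adjusted p = 0.612). Of 12185 genes in RPTEC, 2.95% were lower in SETD2KO without overlap by covered length and 1.41% by peak number. In 786-O, VEGFA averaged 2.75 peaks with SETD2 lost against 5.75 with it expressed (exact permutation p = 0.0286, adjusted p = 1), and the strongest KRT18 peak stood at mean percentiles of 93.7 and 98.3 (exact permutation p = 0.0286, adjusted p = 0.610), both without overlap. Over all 12430 genes, 0.901% separated lower in peak number and 2.07% lower in percentile. VEGFA did not separate by covered length, with means of 2676 bp in SETD2KO and 3689 bp in SETD2-expressing libraries (exact permutation p = 0.2). Its strongest peak did not either, with mean percentiles of 96.1 and 95.2 (exact permutation p = 0.543). Over the 5 genes of the renal tubule list the median difference in 786-O, SETD2KO minus SETD2-expressing, was 1.25 in peak number (0 over all genes), 736 bp in covered length (28.9 bp) and -3.45 in percentile (0.06), with no gene separated by the first 2 measures. In RPTEC it was -1 in peak number (-0.25 over all genes), -242 bp (-70.25 bp) and -6.56 in percentile (-1.83), with no gene separated. The part of these differences in the results below was not tested. In bulk RNA, fewer cells of a type and less RNA per cell cannot be told apart, and a call needs expressed RNA.

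Peaks lay over the annotated transcription start of several of these genes, and the starts are shown first because their sequence is given. Of the 10 genes, 9 had a start in the RefSeq promoter table (GRCh38.p14), all except SRSF2. A peak crossed a start in at least 1 library for 7 of these 9 genes (77.8%), against 44.8% of the 10960 protein-coding genes that had a start and a peak. It did so in at least 8 libraries for 4 genes (44.4%), against 13.2%. Those 4 were SRSF1, in 13 libraries, the second start of SRSF11, in 14, SRRM2, in 12, and TRA2B, in 8. Their windows of 300 bases around the start follow, read 5′ to 3′ on the transcribed strand, with matches to RRACH in capitals.

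SRSF1, chr17:58007197-58007496, minus strand: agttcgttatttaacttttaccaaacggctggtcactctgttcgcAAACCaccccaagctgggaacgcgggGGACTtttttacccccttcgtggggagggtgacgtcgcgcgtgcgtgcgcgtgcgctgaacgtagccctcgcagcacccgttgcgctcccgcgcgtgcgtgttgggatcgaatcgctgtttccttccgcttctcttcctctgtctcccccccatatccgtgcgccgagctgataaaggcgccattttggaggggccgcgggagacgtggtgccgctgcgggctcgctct
SRRM2, chr16:2752388-2752687, plus strand: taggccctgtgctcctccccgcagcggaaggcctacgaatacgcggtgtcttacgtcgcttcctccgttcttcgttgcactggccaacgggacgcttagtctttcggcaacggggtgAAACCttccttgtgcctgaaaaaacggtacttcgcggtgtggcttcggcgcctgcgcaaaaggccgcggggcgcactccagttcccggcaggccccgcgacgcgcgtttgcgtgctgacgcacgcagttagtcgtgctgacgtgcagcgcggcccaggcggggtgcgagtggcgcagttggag
SRSF11 second start, chr1:70221130-70221429, plus strand: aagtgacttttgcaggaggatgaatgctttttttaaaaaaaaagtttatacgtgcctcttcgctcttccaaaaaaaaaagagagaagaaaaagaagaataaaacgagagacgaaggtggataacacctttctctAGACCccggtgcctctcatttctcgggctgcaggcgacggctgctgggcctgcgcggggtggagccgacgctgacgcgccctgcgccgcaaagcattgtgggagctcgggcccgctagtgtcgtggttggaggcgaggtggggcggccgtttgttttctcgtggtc
TRA2B, chr3:185937965-185938264, minus strand: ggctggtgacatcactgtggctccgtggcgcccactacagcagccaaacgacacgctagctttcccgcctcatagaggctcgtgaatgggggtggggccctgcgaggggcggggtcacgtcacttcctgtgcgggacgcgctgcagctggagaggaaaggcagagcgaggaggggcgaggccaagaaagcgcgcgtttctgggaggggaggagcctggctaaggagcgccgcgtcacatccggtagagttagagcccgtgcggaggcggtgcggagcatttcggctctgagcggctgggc

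RRACH, of which GGACT is the best known form, was searched in all 12 of its forms, with A or G at each R and any base but G at H. The SRSF1 window held 2 matches on the transcribed strand and 4 on the other, SRRM2 held 1 and 3, SRSF11 held 1 and 2, and TRA2B held 0 on either strand. Of 35116 windows of the same length, 94.3% held a match on the transcribed strand and 99.5% on either. A match is only a description of these letters. The last 50 bases of each window, which follow the start, held no match in any of the 4, while 40.8% of all windows held one there. Among the windows not printed, those of SRSF6, SON, the first SRSF11 start and the second SRSF7 start held 1 match each there. Those of SRSF3, SRSF5 and the first SRSF7 start held 0. The whole window of the second SRSF11 start, with its match, also lies within the transcript of the first start.

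The summits of these peaks lay mostly on the side of the start that is not transcribed from it. Over the starts of the 9 genes in the promoter table, 46 of 58 peaks (79.3%) had their summit before the start, against 44.7% of 30242 peaks over starts of all protein-coding genes. Distances are in bp, negative before the start. The median summit stood at -31 for SRSF1 (range -63 to -12), at -27.5 for SRRM2 (-80 to -5) and at -51.5 for TRA2B (-92 to -32). The few calls over the starts of SRSF3 (3 libraries, median -127), SON (1 library, -64), SRSF7 at its second start (5 libraries, -48) and SRSF11 at its first start (2 libraries, -57) lay before it too, those of SRSF7 within the transcript of its first start. The SON region also overlaps GART and the region at the first SRSF11 start also overlaps LRRC40, so without strand these 3 of the 46 peaks could belong to the neighbouring gene. SRSF11 at its second start differed, with only 2 of 14 summits before it. SRSF2, which is not in that table, had summits at 13 to 182 bp inside its end of higher coordinate in the 13 libraries that called the region there, and is not in these shares. The lists carry no strand, so the strand of the RNA behind these peaks was not tested. The calls at 1 start share their sequence and are not independent of each other.

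SRRM2 and SON carried most of the peaks. In each library the 10 genes had 12 to 30 peaks (median 23.5), and SON and SRRM2 together held 53.3% to 75% of them (mean 65.2% ± 6.74, SD, n = 16). The number of the 10 genes with any peak ran from 5 to 10, and all 10 had one only in 786-O SETD2KO-1 replicate 1 and 786-O SETD2KO-2 replicate 1. SRSF1, SON and SRRM2 were called in all 16 libraries, SRSF5 in 15, SRSF2 and SRSF11 in 14 and TRA2B in 12. SRSF7 was called in 6 libraries, SRSF6 in 5 and SRSF3 in 3. Mean peak number per library ranked SRRM2 first at 9.94 ± 2.21 (SD, n = 16) and SON next at 4.63 ± 1.15. SRSF1, SRSF2 and SRSF11 followed, each with a mean of 1.63, and neighbours from there down to TRA2B (1 ± 0.73) differed by less than their spread. Among all protein-coding genes SRRM2 ranked 203 and SON 1320 by this mean.

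**Figure D1:**
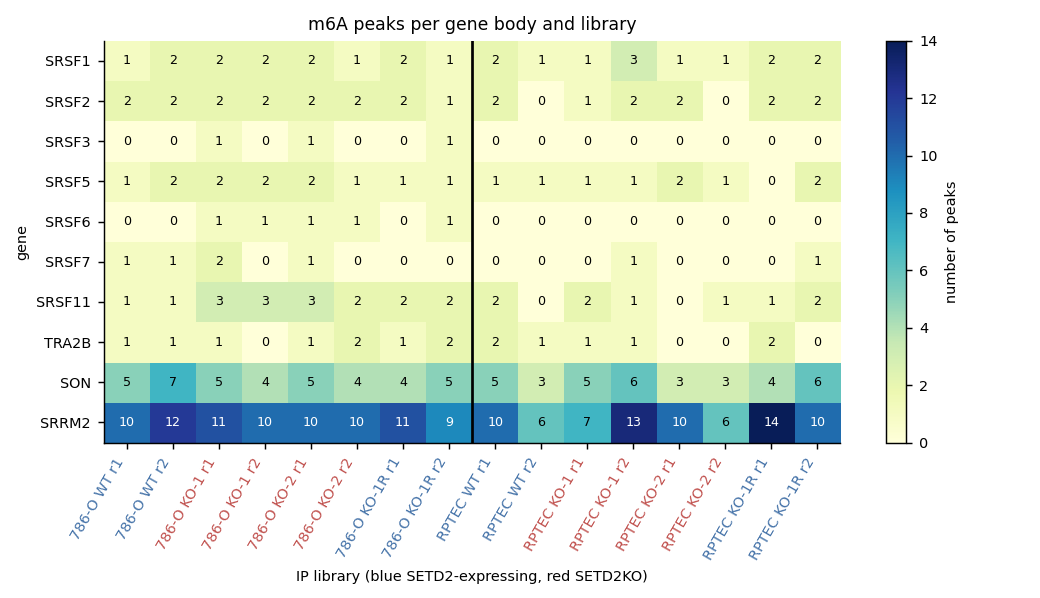
Number of peaks in each of the 10 genes (rows) and 16 libraries (columns, with KO-1, KO-2 and KO-1R for SETD2KO-1, SETD2KO-2 and SETD2KO-1R). SRRM2 and SON stand out in every column, with 6 to 14 and 3 to 7 peaks, and SRSF3 and SRSF6 have peaks in 786-O libraries only.

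SRSF1, which binds purine-rich exonic enhancers (gene ID 6426, chr17:57989038-58007246, minus strand), had 1 to 3 peaks in every library. Its most often called region, chr17:58007077-58007952, spanned the start and was called in 13 libraries. A region downstream, chr17:58006424-58006908, was called in 12 and ranked higher, with a median score percentile of 94.7 against 86.0 at the start. The score percentile is the place of a peak in its own list, where 100 is the strongest, because no scale is given for the score. Gene body covered by peaks ran from 62 to 698 bp (median 388). The highest value stood in RPTEC SETD2KO-1 replicate 2, which alone called a further region, chr17:58005963-58006200.

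SRSF2, a speckle marker also known as SC35 (gene ID 6427, chr17:76734115-76737411), lies over MFSD11, with which its reads could be shared in lists without strand. It had 2 peaks in 12 libraries, 1 in 2 and 0 in RPTEC WT replicate 2 and RPTEC SETD2KO-2 replicate 2, the 2 shortest lists. Its 2 regions were each called in 13 libraries. The one inside the gene, chr17:76736369-76736731, ranked at a median percentile of 96.3 and reached rank 210 of a list, and the one at the end with the higher coordinate, chr17:76737056-76737974, stood at 69.9. The hairpin of MIR636 lies under the first of these. Covered length was 328 to 713 bp in 786-O (median 657) and 0 to 679 bp in RPTEC (median 621).

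SRSF5 (gene ID 6430, chr14:69767142-69772005, plus strand), an SR protein induced by growth signals, was called in all libraries except RPTEC SETD2KO-1R replicate 1. Its main region, chr14:69770673-69771486, lay 3531 to 4344 bp from the start of a gene 4864 bp long and was called in those 15 libraries. No library called its start. Covered length was 499 to 998 bp in 786-O (median 768) and 0 to 913 bp in RPTEC (median 591). Peaks covered on average 13.2% of its gene body, close to the 15.8% of SRSF2 and above the 0.364% to 2.47% of the other SR genes.

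SRSF3, SRSF6 and SRSF7 were called rarely. SRSF3, the smallest SR protein (gene ID 6428, chr6:36594362-36605600, plus strand), had a single peak at its start in 786-O SETD2KO-1 replicate 1, SETD2KO-2 replicate 1 and SETD2KO-1R replicate 2, and none in RPTEC. SRSF7, which has a zinc knuckle (gene ID 6432, chr2:38743599-38751494, minus strand), was called in 4 libraries of 786-O and 2 of RPTEC, most often in chr2:38750875-38751474 (5 libraries). Both genes were called in SETD2KO and in SETD2-expressing libraries.

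SRSF6 (gene ID 6431, chr20:43457896-43464243, plus strand), a regulator of alternative exons, was called in 786-O alone. Its covered length there was 659 and 669 bp in SETD2KO-1, 413 and 329 bp in SETD2KO-2, 0 and 439 bp in SETD2KO-1R and 0 bp in both WT libraries. All 4 SETD2KO libraries thus had a peak, and so did 1 of 4 SETD2-expressing libraries, so the groups overlap. Its most often called region, chr20:43460332-43461009, was called in 4 libraries at a median percentile of 27.9, in the lower part of the lists.

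SRSF11, an SR-related splicing factor (gene ID 9295, chr1:70205696-70253052, plus strand), had 1 and 1 peaks in 786-O WT, 3 and 3 in SETD2KO-1, 3 and 2 in SETD2KO-2, and 2 and 2 in SETD2KO-1R. In RPTEC it had 2 and 0 in WT, 2 and 1 in SETD2KO-1, 0 and 1 in SETD2KO-2, and 1 and 2 in SETD2KO-1R. In 786-O both WT libraries lay below the other 6, and SETD2KO-1R lay with SETD2KO-2 replicate 2. In RPTEC the groups were mixed.

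The split of the 786-O WT libraries from the other 6 lay in 1 region near the end of the gene, chr1:70250111-70250661, which is 551 bp long and lies 44415 to 44965 bp from the first start. In 786-O it was called in all 4 SETD2KO libraries, in both SETD2KO-1R libraries and in 0 of 2 WT libraries. In RPTEC it was called in WT replicate 1, SETD2KO-1 replicate 1 and SETD2KO-1R replicate 2, so the 2 replicates of these 3 lines disagreed. Fisher's exact test of SETD2KO against SETD2-expressing libraries gave p = 0.429 in 786-O and p = 1 in RPTEC, both with an adjusted p of 1.

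Where this SRSF11 region was called, it stood at the very top of the list. By score it ranked 2, 11, 6, 1, 3 and 1 in the 6 calling libraries of 786-O and 2, 1 and 2 in the 3 of RPTEC. It was therefore among the 11 strongest peaks of a list or not in the list at all. Of the 47771 regions called in at least 3 libraries it had the highest median percentile. This region was singled out after its values were seen. Of the 20 regions with the highest medians, 1 was called in all 16 libraries and 12 in 9 or fewer, and regions of RBM25 and LUC7L3, both on the list of SR-related and speckle genes, were among the 20. The other often called SRSF11 region, chr1:70221168-70221669 over the second start, was called in 14 libraries at a median percentile of 74.1.

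TRA2B, a splicing activator of GAA-rich exons (gene ID 6434, chr3:185914558-185938014, minus strand), was called in 7 libraries of 786-O and 5 of RPTEC. Its region at the start, chr3:185937272-185938175, was called in 9 libraries at a median percentile of 98.0. A region within the gene, chr3:185931796-185932102, was called in RPTEC only, in both WT libraries and SETD2KO-1R replicate 1 and in 0 of 4 SETD2KO libraries (Fisher's exact p = 0.143, adjusted p = 1). Of the SETD2-expressing libraries of RPTEC, SETD2KO-1R replicate 2 lacked it as well.

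**Figure D2:**
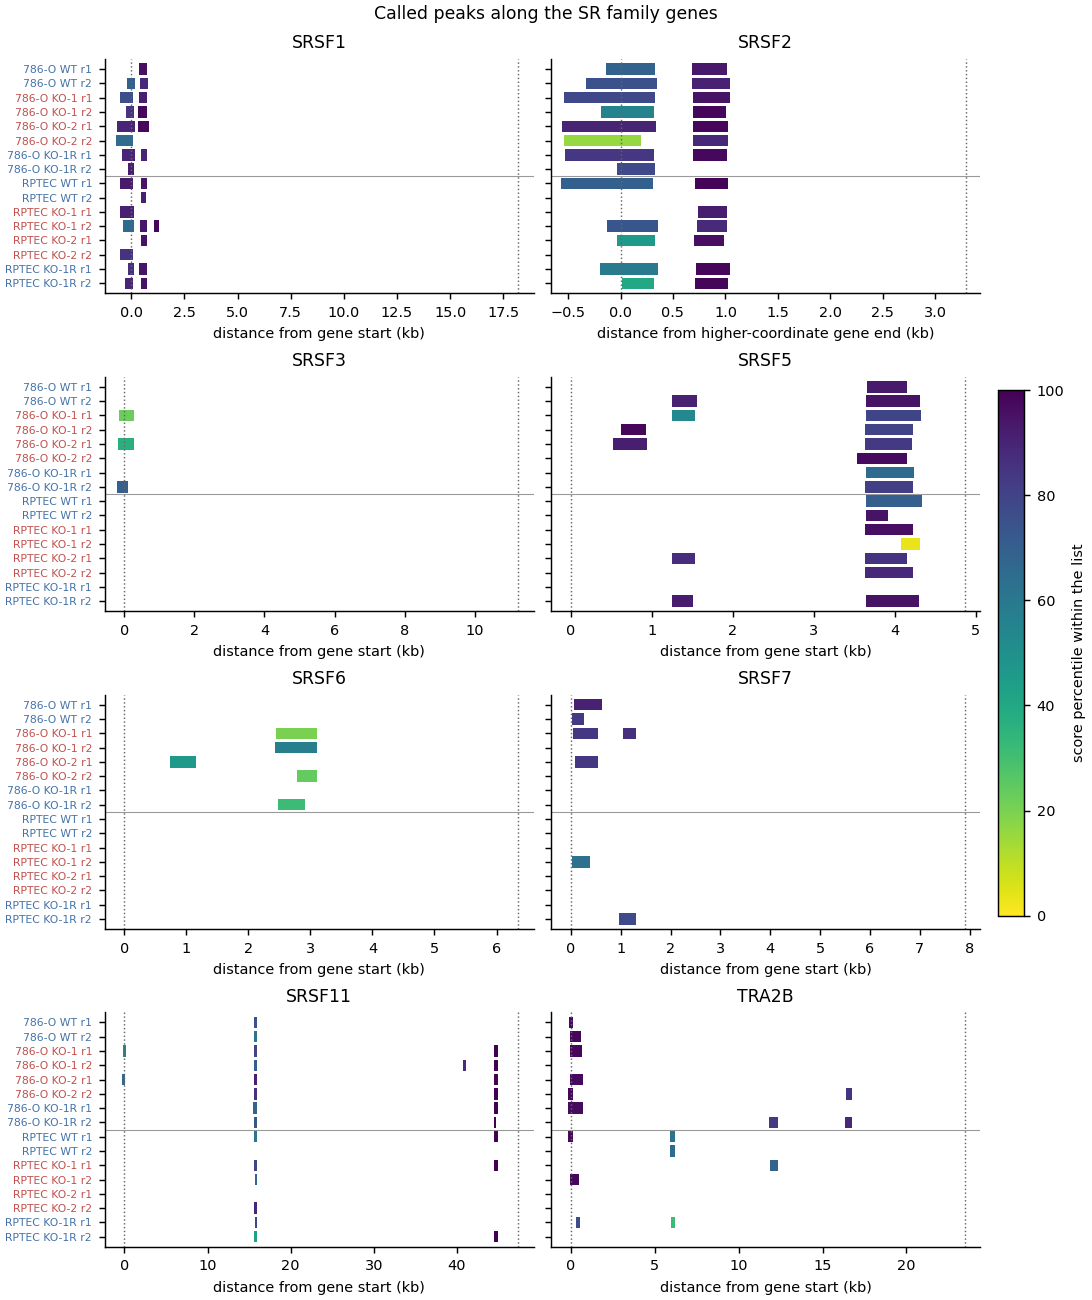
Peaks of the 8 SR and SR-related genes in each library against distance from the gene start in kb (for SRSF2 from its end of higher coordinate), coloured by score percentile. The peak near the far end of SRSF11 is at the top of the colour scale and is missing in 7 libraries.

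SON, the scaffold of nuclear speckles (gene ID 6651, chr21:33543038-33577481, plus strand), had 3 to 7 peaks and 1257 to 4687 covered bp per library (median 3199), or 8.90% of its gene body on average. Of its 11 regions, 3 were called in all 16 libraries, chr21:33549241-33550145, chr21:33550655-33552025 and chr21:33554009-33555200. They lay between 6203 and 12162 bp from the start of a gene 34444 bp long. Of the 11, 8 stood within 2951 to 14829 bp, and only 1, called in 2 libraries of 786-O, lay beyond 32155 bp. The middle one of the 3 was the strongest, with a median percentile of 97.3, against 88.8 and 54.9 for its neighbours.

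SRRM2, a component of the spliceosome and of speckles (gene ID 23524, chr16:2752638-2771412, plus strand), had 6 to 14 peaks and 2587 to 8329 covered bp per library (median 5778). Peaks covered 29.7% of its gene body on average, and by covered length it ranked 140 of all protein-coding genes, with SON at 720. Of its 12 regions, 4 were called in all 16 libraries, chr16:2755011-2757785, chr16:2759129-2760366, chr16:2761224-2763451 and chr16:2769325-2770272. Its regions ran from -583 to 18587 bp of the start, and those called in all libraries from 2373 to 17634 bp. The widest were also the strongest, with median percentiles of 93.0 and 95.8 for the regions of 2775 and 2228 bp, whereas regions from 12149 to 15124 bp had medians of 12.6 to 29.6.

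**Figure D3:**
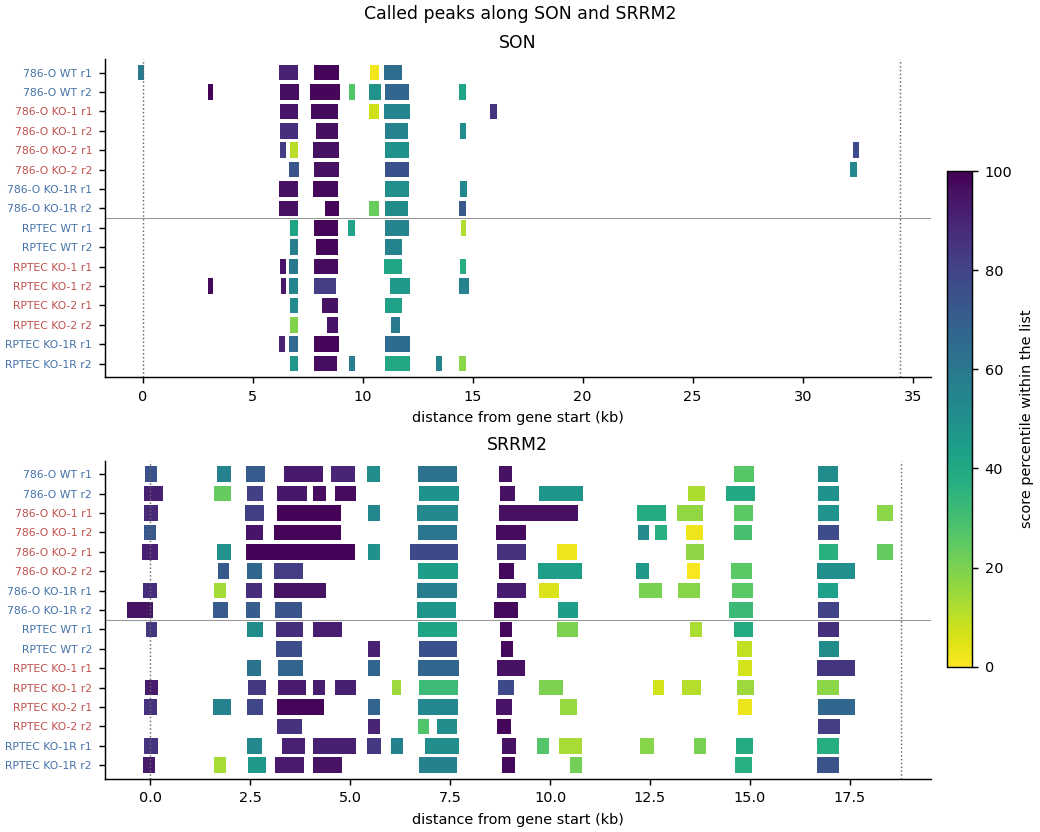
Peaks of SON and SRRM2 in each library against distance from the gene start in kb, coloured by score percentile, with dotted lines at the gene start and end. SON peaks cluster between 6203 and 12162 bp in all 16 libraries, and SRRM2 peaks run along the gene.

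These 7 regions were the only ones of the 44 called in every library (15.9%), against 4.86% of all regions, and 6 were called in 1 library (13.6%), against 35.6%. Both genes are long in covered length, and longer regions are easier to overlap, so the share was not compared by a test. The part of length in this share was not tested.

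Loss of SETD2 was compared next, first by peak number. The 10 genes had 26.3 ± 3.30 peaks per library (SD, n = 4) in 786-O SETD2KO and 24 ± 2.71 in SETD2-expressing libraries, a ratio of 1.09. In RPTEC they had 19 ± 6.63 and 21.5 ± 6.35, a ratio of 0.884. Both differences were within the spread of the libraries.

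No gene of the 10 had SETD2KO and SETD2-expressing libraries that did not overlap in peak number, in 786-O (0 of 10, against 1.52% of 12430 genes higher and 0.901% lower in SETD2KO) or in RPTEC (0 of 8 with a peak, against 1.01% of 12185 genes higher and 1.41% lower). By covered length the count was 0 as well, against 3.28% higher and 1.94% lower in 786-O and 1.72% and 2.95% in RPTEC. With 4 libraries against 4 the smallest p of the exact permutation test is 0.0286, and no gene of the genome passed after Benjamini-Hochberg adjustment. By peak number 301 genes in 786-O and 295 in RPTEC had an unadjusted p of at most 0.05, and 0 of the 10 were among them. These counts test separation of every library and do not show that the values were equal.

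The SR genes nearest to separation in 786-O were SRSF11 and SRSF6. SRSF11 had 2.75 peaks in SETD2KO and 1.5 in SETD2-expressing libraries on average (difference 1.25, exact permutation p = 0.0857, adjusted p = 1), and covered 1061 against 586 bp (p = 0.0857, exact permutation, adjusted p = 0.760). Of the 5 peaks by which the SRSF11 calls of the 4 SETD2KO libraries exceeded those of the 4 SETD2-expressing ones, the region near the end of the gene gave 2, with 4 calls against 2. The other 3 came from chr1:70205447-70205943, called in 2 SETD2KO libraries, and chr1:70246371-70246747, called in 1, each in 0 SETD2-expressing libraries. SRSF6 had 1 and 0.25 (exact permutation p = 0.143, adjusted p = 1). The SETD2KO-1R libraries, which carry the transgene, gave SRSF11 2 and 2 peaks and lay between the WT and SETD2KO-1 values. Against WT alone, 4 libraries face 2 and the smallest p is 0.0667, so no test was made. The effects of SETD2 loss did not differ between the cell lines past the threshold for any of 13420 genes (exact permutation within each line, SRSF11 difference of 1.5 peaks, p = 0.131, adjusted p = 1).

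**Figure D4:**
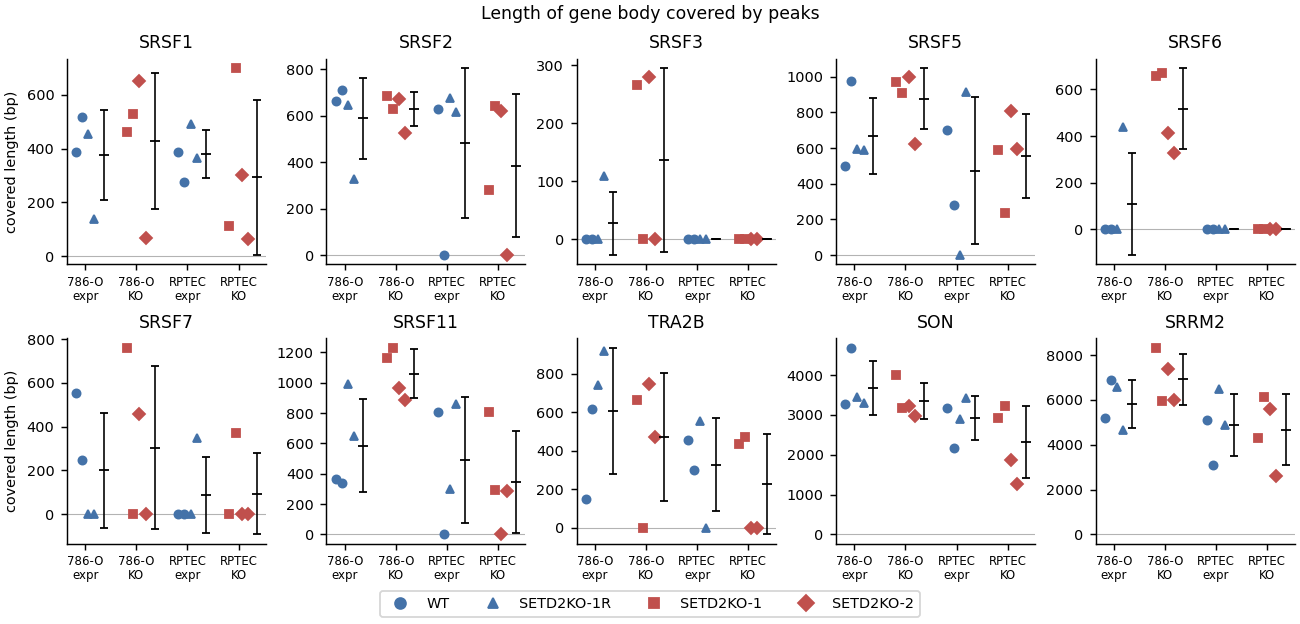
Base pairs of gene body covered by peaks for each gene and library, with blue for SETD2-expressing and red for SETD2KO libraries and bars for the mean ± SD of 4 libraries. The groups overlap for all 10 genes in both cell lines.

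SON and SRRM2 separated in the score percentile of their strongest peak, in opposite directions and in 786-O. For SON the strongest peak stood at percentiles of 97.5 and 96.3 in SETD2KO-1, 95.4 and 96.0 in SETD2KO-2, 98.6 and 99.3 in WT, and 97.9 and 98.6 in SETD2KO-1R. All 4 SETD2KO values lay below all 4 others (difference -2.29, exact permutation p = 0.0286, adjusted p = 0.610). For SRRM2 the values were 99.2 and 98.8, 99.0 and 97.9, 95.6 and 96.9, and 95.0 and 97.7 in the same order, with all SETD2KO values above (difference 2.40, exact permutation p = 0.0286, adjusted p = 0.610). Of the 10 genes, 1 was higher without overlap and 1 lower, where 2.61% and 2.07% of 12430 genes were, and neither passed adjustment.

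In RPTEC 0 of 8 genes separated by this measure, against 1.99% higher and 2.09% lower. SON again had the lower mean in SETD2KO, 96.2 against 98.0 (exact permutation p = 0.0857, adjusted p = 0.908), while SRRM2 had 96.4 against 97.2 (exact permutation p = 0.714, adjusted p = 1). Counted as a rank from the top of the list, which does not depend on its length in the same way, SON in 786-O ran from 823 to 1811 in SETD2KO and from 259 to 687 in SETD2-expressing libraries. Those groups still did not overlap (exact permutation p = 0.0286, adjusted p = 0.625). SRRM2 ran from 274 to 599 and from 584 to 1607, which do overlap (exact permutation p = 0.0571, adjusted p = 0.661).

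By region, SON separated in 786-O at chr21:33550655-33552025, which held its strongest peak in all libraries of 786-O except WT replicate 2. There SETD2KO percentiles of 786-O were 95.4 to 97.5 and the others 97.9 to 98.6 (exact permutation p = 0.0286, adjusted p = 0.730 over 4014 regions called in all libraries). It was 1 of the 7 such regions of SON and SRRM2 that separated, lower in SETD2KO, and 0 separated upward, where 2.32% and 1.59% of the 4014 regions did. The neighbouring region chr21:33549241-33550145 had a larger difference, with means of 84.5 and 94.7, but its groups overlapped (exact permutation p = 0.0571, adjusted p = 0.786). This region test was added after the calls were seen. No SRRM2 region separated, and its strongest peak lay in different regions in different libraries.

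**Figure D5:**
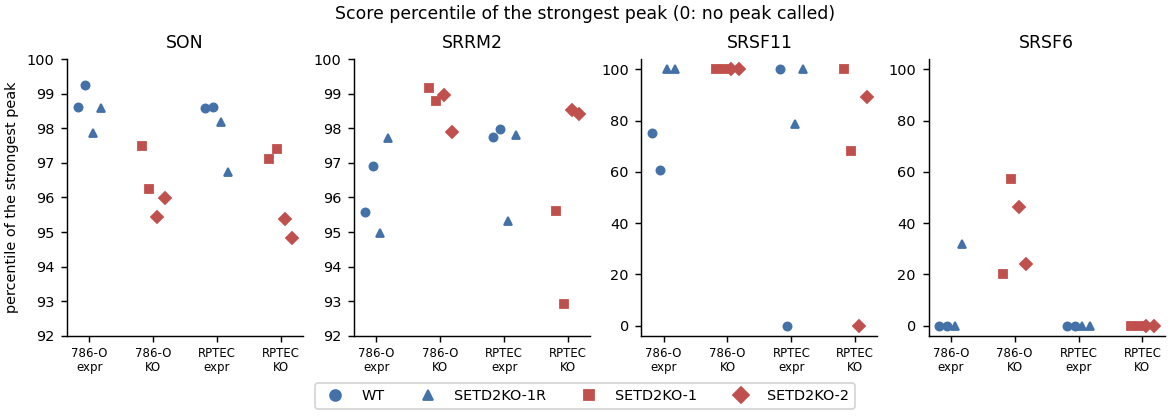
Score percentile of the strongest peak of SON, SRRM2, SRSF11 and SRSF6 in each library (SON and SRRM2 axes from 92 to 100, the others from 0 to 100, where 0 is no peak), blue for SETD2-expressing and red for SETD2KO. In 786-O the red points of SON lie below the blue ones and those of SRRM2 above.

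The cell lines were compared over 8 libraries each. 786-O had 25.1 ± 3.04 peaks in the 10 genes per library (SD, n = 8) and RPTEC 20.3 ± 6.16, a ratio of 1.24, but per 10000 peaks of the list they had 7.72 and 7.52, a ratio of 1.03, since lists were longer in 786-O (25710 to 39670 peaks, against 19249 to 31207). By peak number 0 of the 10 genes passed an adjusted p of 0.05 (exact permutation test over 12870 arrangements), against 3.44% of 13420 genes higher in 786-O and 1.92% lower. At an unadjusted p of at most 0.05 there was 1, SRSF6, with 0.625 against 0 peaks (exact permutation p = 0.0256, adjusted p = 0.178), out of 2424 genes in all.

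All 10 genes had a higher mean covered length in 786-O, as did 72% of all genes, and 0 passed adjustment, against 8.72% higher and 2.65% lower. SON covered 2974 to 4687 bp in 786-O (median 3281) and 1257 to 3434 bp in RPTEC (median 2910), with means of 3509 and 2618 bp (exact permutation p = 0.0134, adjusted p = 0.0793). SRRM2 covered 6372 and 4776 bp on average (exact permutation p = 0.0272, adjusted p = 0.119), and SRSF11 823 and 420 bp (exact permutation p = 0.0393, adjusted p = 0.152). SRSF6 covered 314 and 0 bp (exact permutation p = 0.0256, adjusted p = 0.114). These 4 of the 10 genes had an unadjusted p of at most 0.05, as did 28.1% of all 13420 genes, and the ranges of the cell lines overlapped for each of the 4.

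Calls were then compared region by region. In 786-O 0 of 40 regions were called in all SETD2KO and no SETD2-expressing library or the reverse, against 0.281% and 0.155% of regions. In RPTEC 0 of 32 were, against 0.207% and 0.216%. Between the cell lines 0 of 44 were called in all 8 libraries of one and none of the other, against 0.134% of regions for 786-O and 0.156% for RPTEC. SRSF6 chr20:43460332-43461009 and SON chr21:33553318-33553861 came nearest, each in 4 of 8 libraries of 786-O and 0 of 8 of RPTEC (Fisher's exact p = 0.0769, adjusted p = 1). Counts of 0 among so few regions are what these shares give, and they do not show that calls were alike. By Fisher's exact test no region of the genome passed adjustment in any of these comparisons.

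Other genes of the pathway were read from named lists. Of 6 other SR genes, SRSF4 was called in all 16 libraries, SRSF8 in 14, TRA2A in 12, SRSF10 in 11, SRSF9 in 10 and SRSF12 in 6 libraries of RPTEC only. No gene of that list, of 20 SR-related and speckle genes (18 protein-coding), of 9 SR protein kinases and phosphatase (8 in the table) or of 11 hnRNP genes passed adjustment by peak number or covered length in any comparison. By the percentile of the strongest peak 1 passed, HNRNPK between the cell lines, with a mean of 83.0 in 786-O and 45.3 in RPTEC (exact permutation adjusted p = 0.0233), where 3.82% of 13420 genes were higher and 2.46% lower. HNRNPK was called in 8 libraries of 786-O and 7 of RPTEC, and a library without a call entered the mean as 0. In RPTEC 3 had no overlap in peak number, TRA2A (of 6 tested in its list) and HNRNPH1 (of 10) lower in SETD2KO and BCLAF1 (of 18) higher, against 1.41% of 12185 genes lower and 1.01% higher, and none passed adjustment. In 786-O no gene of these lists separated in peak number. By covered length, HNRNPF separated in 786-O (means of 2775 bp with SETD2 lost and 1927 bp with it expressed, exact permutation p = 0.0286, adjusted p = 0.547), and TRA2A, lower, and BCLAF1, higher, did again in RPTEC. Over all genes 3.28% separated higher and 1.94% lower by covered length in 786-O, and 1.72% higher and 2.95% lower in RPTEC. By the percentile of the strongest peak, SREK1 (99.7 and 98.1) and SF3B2 (93.9 and 98.0) separated in RPTEC (exact permutation p = 0.0286, adjusted p = 0.7005 for each), 1 higher and 1 lower of the 18 genes tested in their list, and none did in 786-O. Of all 12185 genes 1.99% separated higher and 2.09% lower in RPTEC. The median difference of the 10 genes in peak number was 0.25 in 786-O and -0.25 in RPTEC, against 0 and -0.25 over all genes. By covered length it was 107 and -98.5 bp, against 28.9 and -70.25 bp. In RPTEC the median in peak number was -0.625 for other SR genes and -0.25 for SR-related and speckle genes. It was -1.375 for SR kinases and phosphatase and -1.125 for hnRNP genes. Between the cell lines the 10 genes had a median of 0.4375 peaks, against 0.25.

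Across the 16 libraries the genes whose covered length per 10000 peaks ran most like the sum of the 10 were TUBB4B (Pearson r = 0.920), PFDN1 (r = 0.817) and NFE2L1 (r = 0.795), of 4594 genes called in every library. These are the highest of many values over libraries that share cell line and list length, and they are given as a description only.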

How the data were processed

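MeRIP-seq peak lists of 16 IP libraries were used, and Input libraries were not analysed here. Per the labels and the methods, total RNA with an E. coli RNA spike-in was fragmented, immunoprecipitated and made into libraries with a stranded total RNA kit. The authors aligned reads with STAR, counted with HTSeq, applied the spike-in scaling factors and, for each library, ran MACS2 with Input as background, on hg38. The deposited values are a peak score, a whole number of unstated scale, and the summit offset. The remaining 3 value columns of the deposited lists were 0 throughout. There are no read counts, so the depth and the precision of a peak are unknown, and lists carry no strand.

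Samples were grouped by titles and genotypes. Peaks were assigned to GRCh38.p14 RefSeq gene bodies, merged into regions over all libraries, and scores used only as percentiles within a list. Exact two-sided permutation tests per gene and Fisher's exact tests per region were adjusted by Benjamini-Hochberg over all genes or regions, and tested on simulated data (SciPy 1.17.1, NumPy 2.4.6, pandas 2.3.3, under Python 3.11.15). Libraries were the units, although SETD2 status differs between lines, so clone and status are partly nested. All 10 genes are named, with the region of each called in most libraries and, from the other lists, genes past a threshold. Genes without overlap in those lists were named after their values were seen. Members and lists were chosen with earlier results of these data known. Start positions, summits, the SRSF11 top region, the region percentile test and the rank of the strongest peak were added after the calls were seen. A listed marker gene is not reported here.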

Additional observations from a re-analysis of the deposited data

Results flagged for a closer look

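In 36 groups of 4 libraries, 4 covered lengths stood apart from the others of their group, and chance alone gives about 1 in 20 groups. SRSF2 covered 328 bp in 786-O SETD2KO-1R replicate 2, below the 648 to 713 bp of the other SETD2-expressing libraries of 786-O. SON covered 4687 bp in 786-O WT replicate 2, above the 3273 to 3445 bp of the others. RPTEC WT replicate 2, with a list of 23126 peaks, covered 0 bp of SRSF2, where the other SETD2-expressing libraries of RPTEC covered 618 to 679 bp. The same library covered 6125 bp over all 10 genes, against 11247 to 11418 bp in the others.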

How the results depend on the processing

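None of the 28 differences in peak number of the 10 genes passed its threshold in 728 values under the alternatives (lowest adjusted p 0.0756, exact permutation). The 786-O over RPTEC ratio of peaks, 1.24, became 1.44 by covered length and 1.03 per 10000 peaks. Regions called in all 16 libraries, 7, became 3 with the upper 50% of each list, 4 with the same number of peaks per list, 2 when a call had to cover at least 50% of the region, and 14 as bins of 200 bp. These alternatives ask more of a call or count smaller units.

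Small differences in peak number changed sign. In 786-O SETD2KO against SETD2-expressing, SRSF3 became -0.25 both with the upper 50% and with the same number of peaks, SRSF2 -0.25 by peak midpoints, and SRRM2 1086 bp by covered length. In RPTEC, SON became 0.25 with the same number of peaks, 0.25 with a minimum peak length and 0.0662 per 10000 peaks, and SRSF1 0.25 with that minimum length. Between cell lines, SRRM2 became -0.25 with the upper 50%, -0.342 per 10000 peaks and -0.292 without the 2 shortest lists, and SON -0.125 with the same number of peaks and -0.140 per 10000 peaks. The cause was not tested. Leaving out the 2 shortest lists, chosen after seeing the data, gave ratios of 1.09, 0.865 and 1.09 and counts of 0.

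Without 1 library at a time, genes without overlap in 786-O ran from 0 to 1 (SRSF11 without SETD2KO-2 replicate 2, SRSF6 without SETD2KO-1R replicate 2), and regions called by SETD2 status in RPTEC from 0 to 1 (TRA2B chr3:185931796-185932102 without SETD2KO-1R replicate 2). In 786-O SETD2KO minus SETD2-expressing ran from -0.75 to 0.25 for SRRM2, -0.167 to 0.5 for SRSF7 and -0.583 to 0.0833 for TRA2B. In RPTEC it ran from -0.667 to 0.0833 for SRSF11, -0.833 to 0.25 for SON, -0.75 to 0.167 for SRSF2, -0.0833 to 0.583 for SRSF5 and -2.33 to 0.333 for SRRM2, and the percentile of the strongest SRRM2 peak from -1.56 to 0.303.

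Deviations of libraries with the same replicate number correlated between lines at -0.121 to 0.130 over 13420 genes. Whether such libraries share a preparation was not tested. With the replicate block, 0 genes were called in each of the 3 comparisons. SRSF6 between cell lines gave p = 0.0306 (adjusted p = 0.201, exact permutation), and SON and SRRM2 percentiles in 786-O p = 0.0556, the smallest that this design allows (adjusted p = 0.732).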
